A study of Homo sapiens and Mus musculus with 18 samples.

Results

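The genes described here are those of cholesterol and fatty acid synthesis, sterol transport and the SREBP system that controls them, in 2 human pancreatic cancer lines compared at high and low levels of keratin 17 (K17, gene KRT17). They were chosen as a list of 37 named genes, with earlier results of these data known. Of these, 35 matched one of the 34505 gene rows of the human files. PMVK and SCD were not analysed here. L3.6 cells, labelled as pancreatic adenosquamous carcinoma, were either K17 wild type or carried a CRISPR-Cas9 knockout of K17. PANC-1 cells, labelled as pancreatic ductal adenocarcinoma, carried either an empty vector or a K17 over-expression construct. Total RNA was sequenced from 3 libraries of each of these 4 groups, all grown in DMEM with fetal bovine serum, penicillin and streptomycin. The labels do not state whether each engineered line was a clone or a pool, which promoter drove K17, or whether replicates were separate cultures. The p-values therefore measure only the spread between these libraries, which may be technical. Differences are given as the K17-high group minus the K17-low group, which is wild type minus knockout in L3.6 and K17 minus empty vector in PANC-1.

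Cholesterol is built from acetyl-CoA through mevalonate, isoprenoid diphosphates, squalene and lanosterol, and fatty acids are built from the same acetyl-CoA by carboxylation, chain assembly, elongation and desaturation. The SREBP transcription factors, encoded by SREBF1 and SREBF2, switch on most of these enzymes. When membrane sterol is low, the escort protein SCAP carries SREBP from the endoplasmic reticulum to the Golgi, where it is cut and released to the nucleus. When sterol is high, the INSIG proteins hold SCAP back. INSIG1 and SREBF2 are themselves SREBP targets.

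The stretches upstream of the start sites of the listed genes, called members here, were searched for 4 motifs in RefSeq sequence (build GRCh38.p14). The 250 bases before each annotated start were read on both strands for a sterol regulatory element (TCACNCCAC, where N is any base), the NF-Y box (CCAAT), the Sp1 box (GGGCGG) and the E-box (CACGTG). Windows were found for 31 members. The sequences shown are those of SREBF2, the 1 member whose window held the sterol regulatory element letters, and of INSIG1, DHCR7, LSS and IDI1, 4 of the 6 members that passed the test in PANC-1 with all libraries. They were chosen because they hold an NF-Y box. The windows of FADS2 and LPIN1, the other members that passed, hold none and are not printed. Each is printed 5′ to 3′ on the gene's strand, with matches to the sterol regulatory element or the NF-Y box in capitals (ATTGG is CCAAT on the other strand).
SREBF2: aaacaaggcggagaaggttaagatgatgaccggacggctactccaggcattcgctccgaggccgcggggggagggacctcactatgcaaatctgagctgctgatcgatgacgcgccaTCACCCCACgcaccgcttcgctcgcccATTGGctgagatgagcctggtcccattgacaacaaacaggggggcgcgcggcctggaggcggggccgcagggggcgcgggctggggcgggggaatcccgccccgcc
INSIG1: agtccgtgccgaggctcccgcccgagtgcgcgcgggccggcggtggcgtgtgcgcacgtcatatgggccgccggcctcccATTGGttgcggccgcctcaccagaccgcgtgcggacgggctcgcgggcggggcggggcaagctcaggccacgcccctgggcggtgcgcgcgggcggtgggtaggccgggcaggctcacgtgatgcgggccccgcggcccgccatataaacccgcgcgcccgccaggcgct
DHCR7: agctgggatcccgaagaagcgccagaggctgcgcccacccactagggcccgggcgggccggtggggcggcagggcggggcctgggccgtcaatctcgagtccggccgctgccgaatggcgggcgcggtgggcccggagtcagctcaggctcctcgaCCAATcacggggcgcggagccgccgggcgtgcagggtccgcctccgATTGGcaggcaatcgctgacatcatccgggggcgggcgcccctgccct
LSS: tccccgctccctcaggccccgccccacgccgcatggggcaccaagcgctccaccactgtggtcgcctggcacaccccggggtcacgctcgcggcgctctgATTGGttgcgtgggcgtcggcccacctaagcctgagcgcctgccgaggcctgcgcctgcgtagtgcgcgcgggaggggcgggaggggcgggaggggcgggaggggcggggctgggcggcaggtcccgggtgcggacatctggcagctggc
IDI1: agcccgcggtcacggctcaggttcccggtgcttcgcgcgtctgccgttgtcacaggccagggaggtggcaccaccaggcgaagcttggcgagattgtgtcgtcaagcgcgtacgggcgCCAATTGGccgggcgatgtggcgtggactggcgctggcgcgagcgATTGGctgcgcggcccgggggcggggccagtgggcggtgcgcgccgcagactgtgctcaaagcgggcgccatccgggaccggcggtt
These windows lie at chr22:41832855-41833104 on the plus strand for SREBF2, chr7:155297628-155297877 on the plus strand for INSIG1, chr11:71448394-71448643 on the minus strand for DHCR7, chr21:46228775-46229024 on the minus strand for LSS and chr10:1048887-1049136 on the minus strand for IDI1. DHCR7 and IDI1 have other annotated starts whose windows are not printed, and the other DHCR7 window and 1 of the other IDI1 windows hold no NF-Y box.

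In SREBF2 the element reads TCACCCCAC and lies 133 bases before the start, with an NF-Y box after it. The element's letters were in the windows of 1 of 31 members (3.23%) and of 1.09% of all 27305 genes with a window. The NF-Y box was in the windows of 20 of 31 members (64.5%), against 37% of all genes. The IDI1 window holds 3 NF-Y matches, 2 of which overlap on opposite strands as CCAATTGG, and the DHCR7 window holds 2. The Sp1 box was in 30 of 31 members (96.8%) against 46.2% of all genes, and the E-box in 4 (12.9%) against 7.73%. A match is a run of letters, not a measured binding site, and sterol regulatory elements that differ from these letters were not counted. The search took in every member with a window whatever its result, so these shares describe the list and not the rise with K17. All genes here are those with a window, whether or not they were tested in these cells. A gene counted if any of its windows matched, and members had 45 windows for 31 genes against 35116 for 27305.

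Library depth was 9485257 to 15476629 counts in L3.6 and 59671178 to 70789559 in PANC-1. KRT17 followed the labels: it had 13.6 to 15.6 CPM (counts scaled to library size) in the L3.6 knockout libraries and 105 to 121 in wild type, 0 to 2 counts in the PANC-1 empty vector libraries and 139.5 to 165 CPM with K17. In PANC-1, the second empty vector library, replicate 2, differed from the rest. Rows of mitochondrial DNA held 18.8% of its counts against 9.88% to 10.8% in the others, and its score on the first principal component (79.1% of the variance) was 94 against -21.6 to -16.1. PANC-1 members are therefore given with and without it. In L3.6, wild-type replicate 1 lay between the groups on the first component (6.17, against 29.5 and 31.9 for the other wild-type libraries and -29 to -15.8 for the knockouts). The pseudogene row AC010970.1 took 13.5% and 14.1% of counts in those 2 libraries and 4.34% to 6.96% in the other 4. The epithelial marker list (EPCAM, KRT8, KRT18, KRT19, KRT7, CDH1, CLDN4) summed to 3231 to 4142 CPM in L3.6 and 939.9 to 1760 in PANC-1, although its member CDH1 was at 0.114 to 3.17 CPM, and 2 of the 7 passed as lower in L3.6 wild type and 2 as higher in PANC-1 K17 without replicate 2. The hepatocyte and adipocyte markers, of cell types that are rich in lipid enzymes, summed to at most 1.6 CPM in any library, with ADIPOQ at 0 in L3.6 and in PANC-1 K17. Markers that moved with the groups were PECAM1 of the endothelial list and COL3A1 of the fibroblast list. PECAM1 had 3.41 to 3.74 CPM in L3.6 knockout and 8.24 to 11.5 in wild type. Its whole list summed to 3.5 to 4.0 and 8.8 to 13.0 CPM. COL3A1 had 2.57 to 3.18 CPM with PANC-1 empty vector and 0.372 to 0.418 with K17. Its whole list summed to 4.1 to 5.0 and 2.7 to 3.1 CPM. In L3.6 the fibroblast list summed to 37.4 to 45.2 CPM, with COL3A1 at 29.7 to 41.4. Immune markers summed to 1.7 to 6.2 CPM in L3.6 and, through CD68, to 35.3 to 51.2 in PANC-1, with CD3E at 0 throughout. The part of these markers in the results was not tested.

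Transcripts of genes from every branch of sterol synthesis were more abundant with K17 than with empty vector in PANC-1, though how many passed the test depended on 1 control library. INSIG1, the sterol-regulated brake on SREBP, was 4.34-fold higher with all libraries, DHCR7, the last reductase of cholesterol synthesis, 3.02-fold, and FADS2, a desaturase of polyunsaturated fatty acids, 2.55-fold. With all 6 libraries, 32 of the 34 members tested had a positive log2 fold change, and 6 passed the test (edgeR's quasi-likelihood test, Benjamini-Hochberg adjusted p under 0.05 over all 16295 genes tested). These 6 were INSIG1, DHCR7, LSS, IDI1, FADS2 and LPIN1, and all were higher with K17. Of all genes tested, 0.583% passed as higher and 0.0614% as lower, and no member passed as lower. Because the list was chosen with earlier results of these data known, comparing it with all genes is not an independent test. The median log2 fold change was 0.85 over the members and 0.01 over all genes. At an unadjusted p under 0.05 there were 20 members, against 1634 of all 16295 genes. DESeq2 called 15 members higher and 0 lower, against 448 of all genes higher and 147 lower.

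Without empty vector replicate 2, 30 of 34 members rose with K17 and 0 fell. The 4 that did not pass were FDFT1, EBP, SCAP and AACS. In that fit 11.4% of all 16640 genes tested passed as higher and 9.25% as lower, and the median was 1.03 over the members against 0.01 over all genes. The lowest K17 library lay above the highest of the 2 empty vector libraries in 32 members, against 25.3% of all genes higher and 22.9% lower. With replicate 2 kept, the K17 libraries lay wholly above in 25 members, against 14.5% of all genes higher and 11.1% lower, and wholly below in 0. The 18 members past the threshold outside the 12 largest changes ranged from 0.32 for NPC1 to 1.12 for IDI1. Upper-quartile scaling changed the split of all genes from 1902 higher and 1540 lower to 1549 higher and 2193 lower, while 29 members were then higher and 0 lower.

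**Figure D1:**
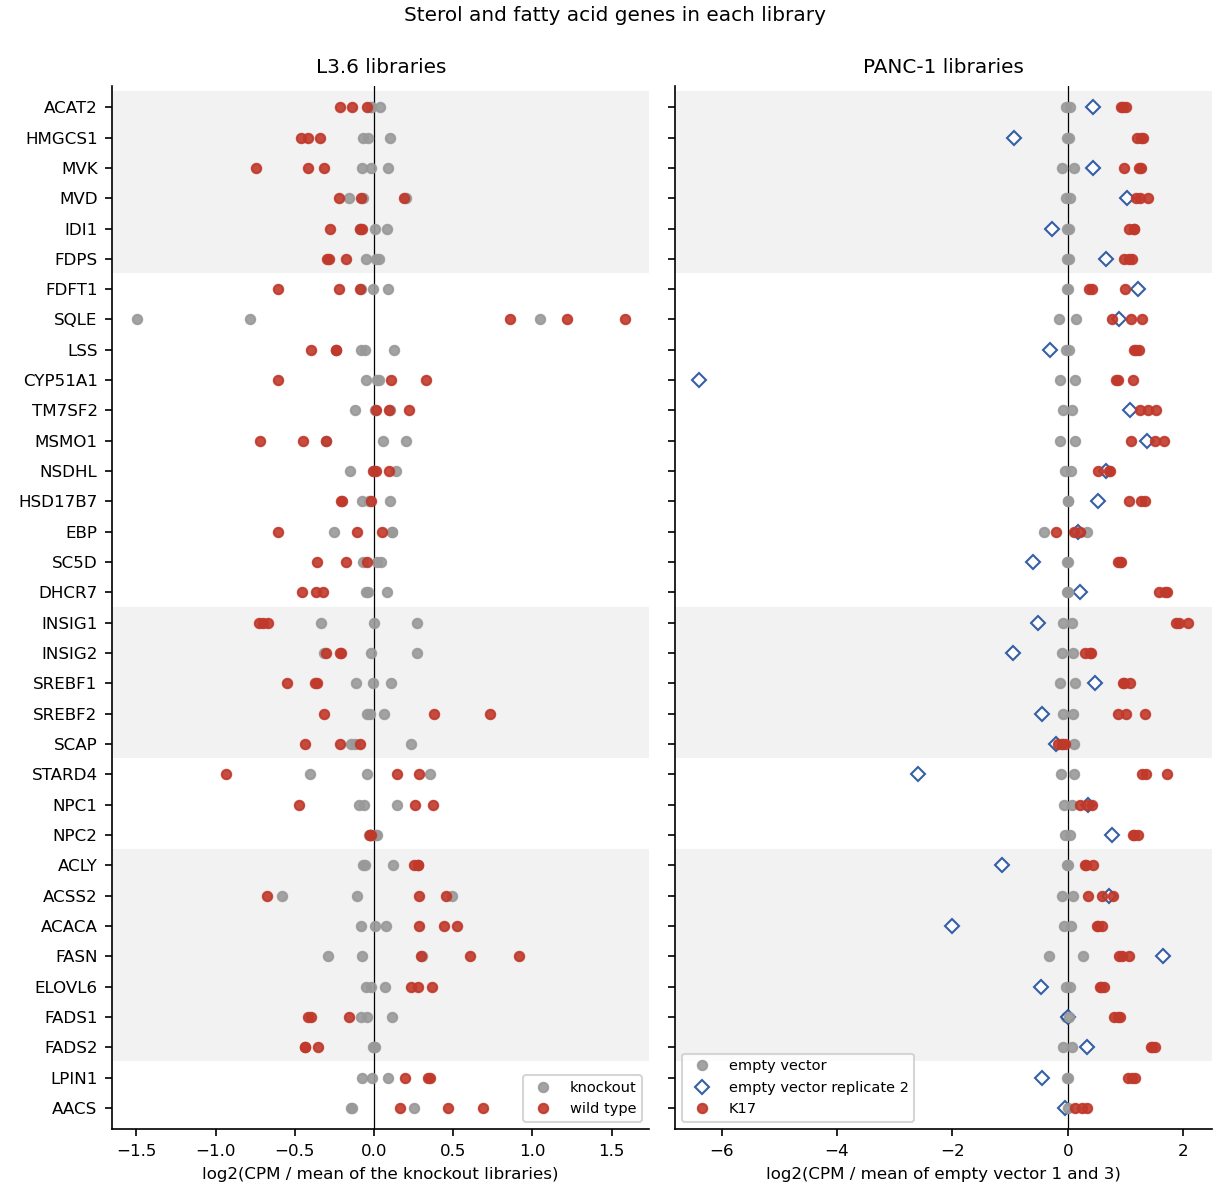
Level of each tested member in each library, as log2 of its CPM over the mean of the knockout libraries (L3.6, left) or of empty vector replicates 1 and 3 (PANC-1, right), where shaded and plain bands separate the roles of the genes. In PANC-1 the 3 K17 libraries sit above empty vector replicates 1 and 3 for 32 members, while empty vector replicate 2 (open diamonds) lies below both for 15 and above both for 17. The L3.6 panel has a narrower axis, and its groups lie apart for 4 members above and 12 below.

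**Figure D2:**
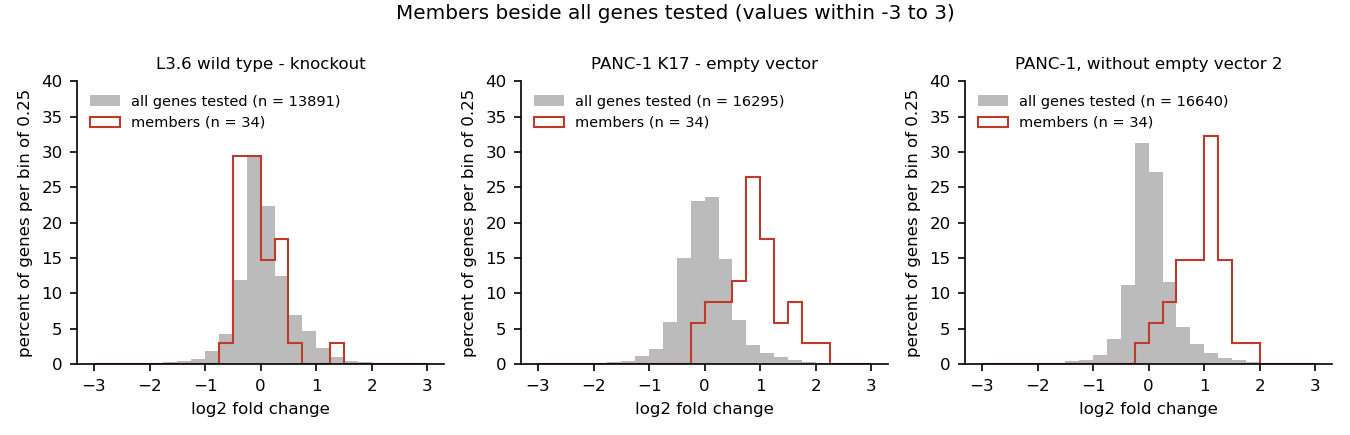
Distribution of log2 fold changes of the 34 members tested (red outline) and of all genes tested (grey) in each comparison, as percent of genes per bin. The medians of the members are -0.14 in L3.6, 0.85 in PANC-1 and 1.03 in PANC-1 without empty vector replicate 2, and those of all genes are 0.01 in each.

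In the mevalonate branch, all 6 members measured had positive changes in PANC-1, 1 of 6 passed with all libraries and 6 of 6 without empty vector replicate 2. The shares of all genes passing as higher were 0.583% and 11.4%. HMGCS1, which condenses acetyl-CoA units into HMG-CoA, had 90.2, 48.0 and 92.5 CPM in empty vector replicates 1 to 3 and 219, 224 and 209 with K17. The groups did not overlap, and replicate 2 was the lowest. Its log2 fold change was 1.501 ± 0.272 (SE) with all libraries (adjusted p = 0.0943) and 1.25 ± 0.04 without replicate 2 (adjusted p = 7.6e-06). IDI1, the isopentenyl diphosphate isomerase, had 124, 103 and 127 CPM with empty vector and 278, 278 and 261 with K17, a log2 fold change of 1.21 ± 0.14 (adjusted p = 0.0347). MVK, the mevalonate kinase, had 8.48, 12.3 and 9.79 CPM with empty vector and 22.1, 21.5 and 17.9 with K17. All K17 libraries were above all controls for MVK, though its log2 fold change was 1.01 (adjusted p = 0.107) with all libraries and 1.16 (adjusted p = 0.000747) without replicate 2. MVD, the decarboxylase that makes isopentenyl diphosphate, had 1.77, 3.70 and 1.87 CPM with empty vector and 4.35, 4.12 and 4.75 with K17. Here replicate 2 lay close below the K17 libraries, and the log2 fold change was 0.85 (adjusted p = 0.453) with it and 1.27 (adjusted p = 0.00103) without it. FDPS, the farnesyl diphosphate synthase, had 80.2, 127.9 and 82.2 CPM with empty vector and 169.8, 176 and 159.6 with K17, with a change of 0.80 (adjusted p = 0.248) with all libraries and a rise of 1.05 (adjusted p = 2.25e-05) without replicate 2. ACAT2, the cytosolic acetoacetyl-CoA thiolase, had a mean of 99.5 ± 3.23 CPM (SD, n = 2) in empty vector replicates 1 and 3 and 194 ± 6.23 (n = 3) with K17, and its change was 0.80 (adjusted p = 0.134) with all libraries and 0.96 (adjusted p = 1.96e-05) without replicate 2.

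From squalene to cholesterol, 2 of 11 members passed with all libraries and 9 of 11 without replicate 2, against 0.583% and 11.4% of all genes higher. DHCR7 had 47.9, 55.4 and 48.4 CPM with empty vector and 155.5, 159 and 143 with K17. Replicate 2 was the highest control but far below the K17 libraries, and the gene passed in both fits (log2 fold change 1.59 ± 0.13, adjusted p = 0.0152, and 1.66 ± 0.05, adjusted p = 7.6e-06). LSS, the lanosterol synthase, had 25.8, 21.2 and 26.6 CPM with empty vector and 58.4, 59.2 and 61.8 with K17 (1.28 ± 0.14, adjusted p = 0.0288). HSD17B7, a sterol ketone reductase, had 13.9, 20.0 and 14.0 CPM with empty vector and 33.5, 35.3 and 29.1 with K17, with no overlap. Its log2 fold change was 1.03 (adjusted p = 0.103) with all libraries and 1.22 (adjusted p = 0.000217) without replicate 2. TM7SF2, a sterol reductase that acts after lanosterol demethylation, had 3.61, 8.04 and 4.05 CPM with empty vector and 9.10, 10.1 and 11.1 with K17, while MSMO1, the methylsterol oxidase, had 6.62, 18.7 and 7.90 CPM and 23.0, 20.6 and 15.5. Replicate 2 reached into the K17 range for MSMO1 and came near it for TM7SF2. With all libraries the changes were 0.95 for TM7SF2 (adjusted p = 0.427) and 0.83 for MSMO1 (adjusted p = 0.601). Both rose without replicate 2, TM7SF2 by 1.40 (adjusted p = 0.000488) and MSMO1 by 1.44 (adjusted p = 0.00339).

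For several other late-pathway members the value turned on replicate 2. CYP51A1, the lanosterol demethylase, had 16.8 and 20.1 CPM in empty vector replicates 1 and 3 but 0.22 CPM (15 counts) in replicate 2, and 33.1, 33.8 and 40.3 with K17. Its log2 fold change was 1.53 with a 95% interval of -1.43 to 4.49 with all libraries, and 0.95 (interval 0.67 to 1.23, adjusted p = 0.00257) without replicate 2. SQLE, the squalene epoxidase, had 39.1, 65.8 and 31.7 CPM with empty vector and 60.3, 85.9 and 75.6 with K17, so replicate 2 lay above the lowest K17 library. Its change was 0.70 (adjusted p = 0.536) with all libraries and 1.06 (adjusted p = 0.0194) without replicate 2, and the latter call held in 8 of 12 alternatives (adjusted p up to 0.0921). SC5D, a sterol desaturase, had a change of 1.07 (adjusted p = 0.0978) with all libraries and rose by 0.89 (adjusted p = 1.02e-05) without replicate 2. NSDHL, a sterol dehydrogenase, had 36.6, 55.8 and 33.9 CPM with empty vector and 58.7, 58.1 and 50.7 with K17, and replicate 2 again lay within the K17 range. Its change was 0.41 (adjusted p = 0.609) with all libraries and 0.66 (adjusted p = 0.00142) without replicate 2. FDFT1, the squalene synthase, averaged 16.5 CPM in replicates 1 and 3, 38.2 in replicate 2 and 25.4 with K17 (0.10, adjusted p = 0.938, with all libraries and 0.62, adjusted p = 0.0981, without replicate 2). EBP, a sterol isomerase with 133 to 246 counts per library, had a log2 fold change of -0.01 (interval -0.62 to 0.59) with all libraries and 0.04 (interval -0.55 to 0.63) without replicate 2.

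Among the SREBP control genes, INSIG1 had 17.2, 12.6 and 19.1 CPM with empty vector and 66.3, 76.4 and 69.3 with K17. Every K17 library was above every control, and the log2 fold change was 2.12 ± 0.19 (adjusted p = 0.0221) with all libraries and 1.96 ± 0.08 (adjusted p = 1.96e-05) without replicate 2. SREBF2, which encodes the SREBP that favours sterol genes, had 18.9, 13.1 and 16.8 CPM with empty vector and 45.1, 35.8 and 32.7 with K17 (1.22, adjusted p = 0.073, and 1.08, adjusted p = 0.00512, without replicate 2). SREBF1, which encodes the SREBP forms that favour fatty acid genes, had 15.2, 23.0 and 18.1 CPM with empty vector and 32.2, 35.1 and 32.8 with K17 (0.83, adjusted p = 0.154, and 1.00, adjusted p = 0.000375). Neither gene's groups overlapped. INSIG2, the second SCAP anchor, had 17.0, 8.28 and 14.9 CPM with empty vector and 19.7, 20.8 and 21.1 with K17, and its change was 0.62 (adjusted p = 0.543) with all libraries and 0.36 (adjusted p = 0.0231) without replicate 2, a call kept in 8 of 12 alternatives (adjusted p up to 0.132). SCAP had 5.37, 4.99 and 6.20 CPM with empty vector and 5.14, 5.61 and 5.38 with K17. Its groups overlapped, and its log2 fold change was -0.04 (interval -0.42 to 0.34) with all libraries and -0.11 (interval -0.38 to 0.17) without replicate 2.

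Of the sterol carriers, 0 of 3 tested passed with all libraries (lowest adjusted p = 0.269, with 2 at an unadjusted p under 0.05 and 0 by DESeq2). Without replicate 2, 3 of 3 passed, where 11.4% of all genes rose. STARD4, a cytosolic sterol carrier, had 6.49, 1.00 and 5.55 CPM with empty vector and 19.7, 14.7 and 15.5 with K17 (1.94, adjusted p = 0.388, with all libraries and 1.46, adjusted p = 0.00103, without replicate 2, which held 68 counts against 457 and 354). NPC2, which hands cholesterol over inside lysosomes, had 56.0, 92.5 and 53.0 CPM with empty vector and 121, 126.5 and 119 with K17 (0.86, adjusted p = 0.269, with all libraries and 1.16, adjusted p = 1.4e-05, without replicate 2). Its membrane partner NPC1 had 14.0, 17.1 and 12.8 CPM with empty vector and 16.8, 17.9 and 15.5 with K17, with replicate 2 above the lowest K17 library. The NPC1 change was 0.20 (adjusted p = 0.713) with all libraries and 0.32 (adjusted p = 0.0492) without replicate 2, and that call was kept in 4 of 12 alternatives (adjusted p up to 0.249). ABCA1, the cholesterol exporter, had 0 or 1 count in each PANC-1 library and 0 to 24 in L3.6, and did not pass the filter on low counts in either line. With 0 counts a library still allows up to 3, so ABCA1 was not detectable at this depth in PANC-1.

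In fatty acid synthesis, 7 of 7 members measured rose with K17 without replicate 2, with a median of 0.59, and 1 of 7, FADS2, passed with all libraries. The shares of all genes passing as higher were 11.4% and 0.583%. FADS2 had 47.4, 62.9 and 52.9 CPM with empty vector and 137, 143 and 137 with K17 (1.35 ± 0.15, adjusted p = 0.0299). FADS1, the neighbouring desaturase, had 289.5, 293.5 and 299 CPM with empty vector and 537, 551 and 514 with K17, and missed the threshold with all libraries (0.86, adjusted p = 0.0511, and adjusted p = 1.85e-05 without replicate 2). For these desaturases replicate 2 was near the other controls. ACACA, the carboxylase that commits acetyl-CoA to fatty acids, had 193, 50.3 and 210.1 CPM with empty vector and 303, 288 and 290.3 with K17, and ACLY, which makes cytosolic acetyl-CoA, had 169, 76.3 and 167 CPM and 226, 209 and 207.5. For both, replicate 2 was far below the other controls, and with it the changes were 0.96 for ACACA (adjusted p = 0.608) and 0.64 for ACLY (adjusted p = 0.587). Without it ACACA rose by 0.54 (adjusted p = 0.000243) and ACLY by 0.35 (adjusted p = 0.00159). ELOVL6, an elongase, had 44.1, 31.3 and 42.2 CPM with empty vector and 66.5, 64.6 and 63.7 with K17, with a change of 0.73 (adjusted p = 0.165) with all libraries and 0.59 (adjusted p = 0.000199) without replicate 2. FASN, the fatty acid synthase, had a change of 0.18 (adjusted p = 0.906) with all libraries and 0.96 (adjusted p = 0.0148) without replicate 2. ACSS2, an acetyl-CoA synthetase, had 0.30 (adjusted p = 0.724) and 0.58 (adjusted p = 0.0354), and its call was kept in 7 of 12 alternatives (adjusted p up to 0.188). FASN had only 127 to 539 counts per PANC-1 library, and its highest library was empty vector replicate 2.

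LPIN1, a phosphatidate phosphatase of triglyceride and phospholipid synthesis, had 87.9, 64.3 and 86.7 CPM with empty vector and 189, 196 and 179 with K17, with no overlap (1.24 ± 0.17, adjusted p = 0.0468, and 1.10 ± 0.04, adjusted p = 1.4e-05, without replicate 2). AACS, which feeds ketone bodies into lipid synthesis, had a change of 0.25 with all libraries and 0.23 (adjusted p = 0.136) without replicate 2, with means of 10.1 and 11.9 CPM.

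Empty vector replicate 2 did not shift the members one way. Against the other 2 controls it was lower for 15 of the 34 members, higher for 17 and between them for 2, and it reached the lowest K17 library for 8 of them. Its part in the results was not tested beyond leaving it out. Leaving out any other single PANC-1 library while keeping replicate 2 gave 0 members past the threshold. In those refits 0 or 1 of all genes passed as higher and 0 as lower, and 31 or 32 of the 34 members stayed positive. Without replicate 2, omitting each K17 library in turn left 27 to 29 members, with 1490 to 1593 of all genes higher and 1133 to 1244 lower. Omitting empty vector replicate 1 or 3 as well kept 1 control library, and the median over the members was then 1.05 or 1.02. No member that passed the test changed sign in these refits.

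**Figure D3:**
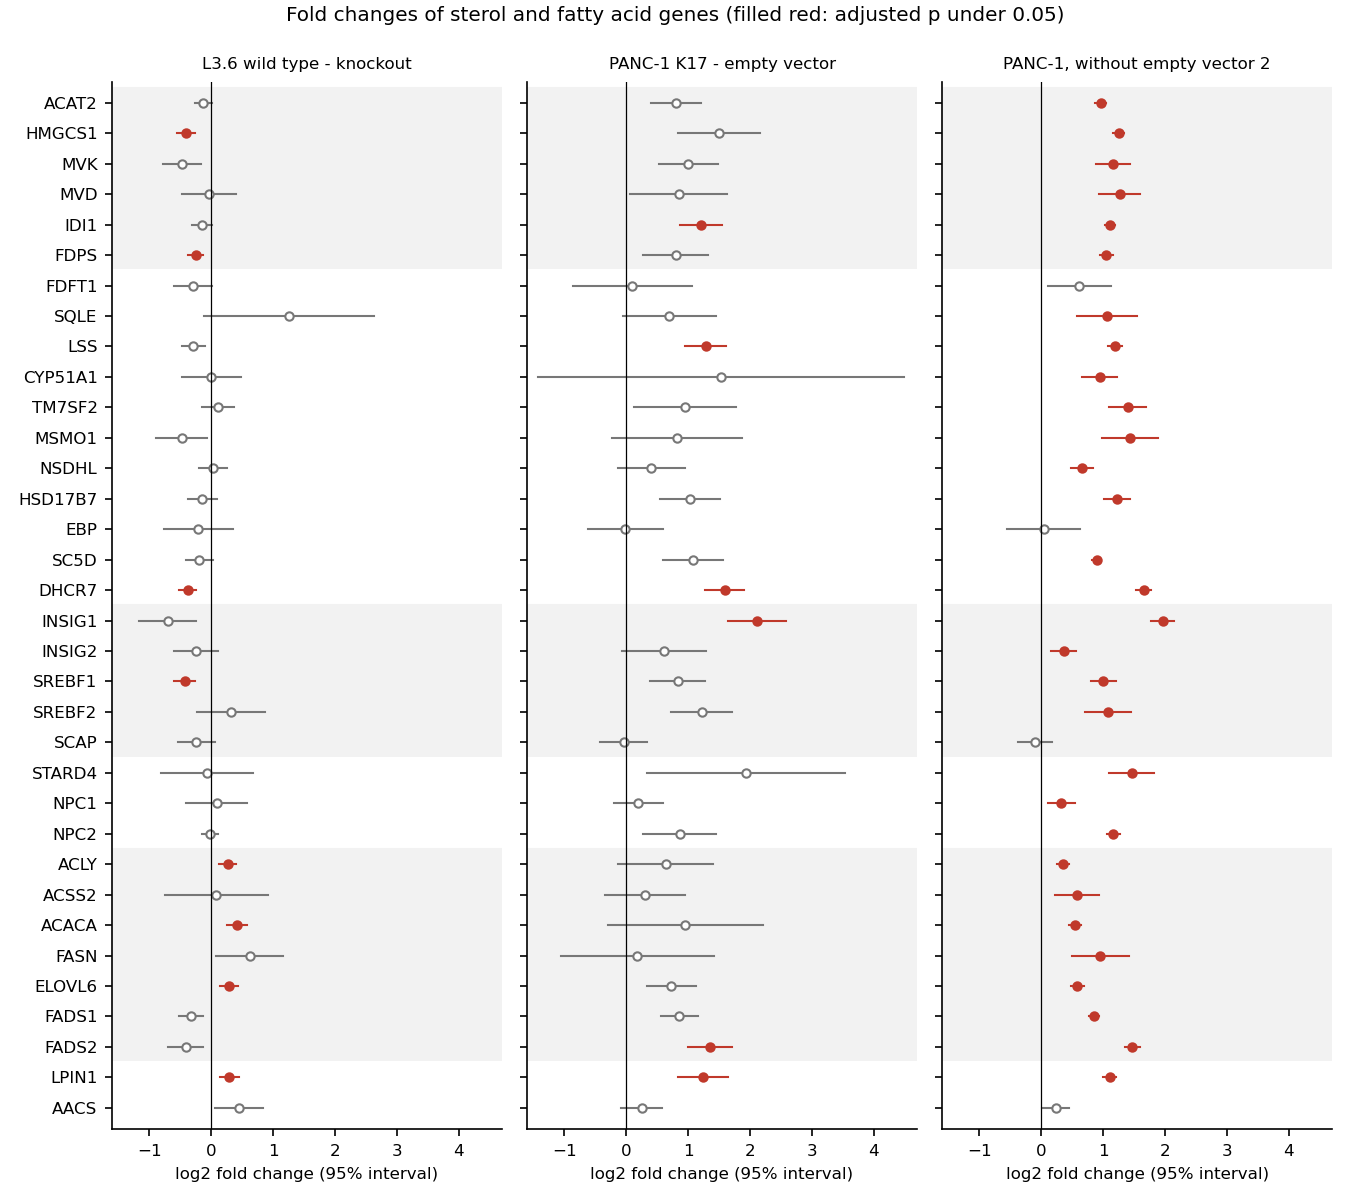
Log2 fold change with its 95% interval for each tested member in L3.6 (left), PANC-1 (middle) and PANC-1 without empty vector replicate 2 (right), where filled red marks an adjusted p under 0.05. In PANC-1 the estimates lie right of 0 for 32 of 34 members with wide intervals, which shorten when empty vector replicate 2 is left out; in L3.6 the members passing the test divide into 4 on each side.

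In L3.6 the members moved little and in both directions. The enzymes HMGCS1, FDPS and DHCR7 of cholesterol synthesis and the regulator SREBF1 were lower in wild type than in knockout cells, while ACLY, ACACA and ELOVL6 of fatty acid synthesis and LPIN1 were higher. Of 34 members tested, 4 rose and 4 fell by edgeR's quasi-likelihood test (Benjamini-Hochberg adjusted p under 0.05), and 3.51% of all 13891 genes tested rose and 6.1% fell. The median log2 fold change was -0.14 over the members and 0.01 over all genes, with 13 members positive and 21 negative. Wild-type libraries lay wholly above the knockouts for 4 members, against 15.3% of all genes, and wholly below for 12, against 17.9%. Upper-quartile scaling turned the split of all genes from 488 higher and 847 lower to 639 and 706, and left 4 members on each side. HMGCS1, DHCR7, SREBF1 and ACACA each passed in 13 of 14 alternative fits, all but the joint fit of 4 groups, while FDPS, ACLY and ELOVL6 passed in 7 and LPIN1 in 6. Without wild-type replicate 1, 6 members rose and 5 fell, against 956 and 1537 of all genes. Without any other single L3.6 library 1 or 2 rose and 3 or 4 fell, against 193 to 276 and 370 to 531 of all genes.

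In the mevalonate branch 2 of 6 members fell, 0 rose and all 6 estimates were negative, while 6.1% of all genes fell and 3.51% rose. HMGCS1 had 221.5, 249.3 and 226 CPM in knockout replicates 1 to 3 and 184, 174 and 169 in wild type. The groups did not overlap, and the log2 fold change was -0.40 ± 0.06 (adjusted p = 0.00582). FDPS had 248.6, 263 and 260.1 CPM in knockout and 228, 211 and 209.7 in wild type (-0.25 ± 0.05, adjusted p = 0.0232). MVK had 25.2, 27.1 and 24.2 CPM in knockout and 20.5, 15.2 and 19.1 in wild type, with no overlap but an adjusted p of 0.062. Values for the rest were -0.13 for ACAT2, -0.14 for IDI1 and -0.03 for MVD.

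From squalene on, 1 of 11 members fell and 0 rose, which is near the shares of all genes (6.1% fell and 3.51% rose). DHCR7 had 199, 219 and 201 CPM in knockout and 165.5, 151 and 160.5 in wild type (-0.38 ± 0.06, adjusted p = 0.00657). LSS had 63.6, 72.3 and 62.6 CPM in knockout and 56.0, 50.3 and 56.1 in wild type (-0.29, adjusted p = 0.0629). The groups overlapped in neither gene. MSMO1 had 13.1, 16.7 and 18.5 CPM in knockout and 11.8, 9.76 and 13.0 in wild type, with an adjusted p of 0.128. SQLE had the widest interval of the members, at 13 to 134 counts per library, with a log2 fold change of 1.26 and an interval of -0.12 to 2.63. The remaining 7 members of this branch had log2 fold changes from -0.30 for FDFT1 to 0.11 for TM7SF2, with EBP at -0.20, SC5D at -0.19, HSD17B7 at -0.14, CYP51A1 at 0.01 and NSDHL at 0.03.

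Of the 5 SREBP control genes, SREBF1 alone passed in L3.6, where 6.1% of all genes fell and 3.51% rose. SREBF1 lies on the short-arm side of chromosome 17, where 36.7% of genes fell and 1.99% rose, as described in the paragraph on that chromosome. SREBF1 had 405, 438 and 375 CPM in knockout and 317, 277 and 313 in wild type (-0.43 ± 0.07, adjusted p = 0.0106), with no overlap. INSIG1 had 11.4, 9.49 and 7.51 CPM in knockout and 5.73, 5.96 and 5.84 in wild type. All 3 wild-type libraries were lower, at 55 to 90 counts each, and the adjusted p was 0.0655 (log2 fold change -0.70, interval -1.16 to -0.24). INSIG2 had 21.6, 26.3 and 17.5 CPM in knockout and 18.8, 18.9 and 17.7 in wild type, and SCAP had 44.6, 58.0 and 45.3 CPM and 46.4, 42.4 and 36.5. SREBF2 had 40.04, 37.6 and 37.2 CPM in knockout and 30.7, 49.7 and 63.4 in wild type, with wild-type replicate 1 below and the other 2 above all knockouts. The adjusted p was 0.346 for INSIG2, 0.267 for SCAP and 0.411 for SREBF2. Of the carriers, none of 3 tested passed (lowest adjusted p = 0.814; 0 at an unadjusted p under 0.05 and 0 by DESeq2), with 0.09 for NPC1, -0.02 for NPC2 and -0.06 for STARD4.

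Of the 7 fatty acid genes measured, 3 rose and 0 fell in L3.6, while 3.51% of all genes rose and 6.1% fell. DESeq2 called 3 of the 7 higher and 1 lower, against 657 of all 13891 genes higher and 1028 lower. ACACA had 351, 334 and 314.5 CPM in knockout and 479.6, 406.5 and 452 in wild type (0.42 ± 0.07, adjusted p = 0.00879). ACLY had 282.5, 279.9 and 319 CPM in knockout and 357, 356 and 350.5 in wild type (0.27 ± 0.06, adjusted p = 0.0283). Both genes lie on chromosome 17, considered separately in the paragraph on that chromosome. ELOVL6 had 72.7, 78.9 and 74.4 CPM in knockout and 97.0, 91.3 and 88.7 in wild type (0.29 ± 0.06, adjusted p = 0.0229). The desaturases had negative estimates: FADS1 averaged 153 CPM in knockout and 123 in wild type (-0.32, adjusted p = 0.0512), and FADS2 14.8 and 11.2 CPM (-0.41, adjusted p = 0.0781). FASN had 58 to 131 counts per library and a change of 0.63 (adjusted p = 0.134), and ACSS2 one of 0.09. LPIN1 had 84.2, 90.4 and 80.8 CPM in knockout and 97.2, 109 and 108 in wild type (0.30 ± 0.07, adjusted p = 0.0331), and AACS had a change of 0.45 (adjusted p = 0.127).

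Genes on chromosome 17, which carries KRT17, differed by chromosome arm between the L3.6 groups. With the chromosome divided at 25 Mb, 92 of 251 genes tested on the short-arm side (36.7%) were lower in wild type and 5 higher, with a median log2 fold change of -0.38. On the long-arm side 109 of 611 genes (17.8%) were higher and 6 lower, with a median of 0.27. On all other chromosomes together 2.87% were higher and 5.75% lower, with a median of -0.00274. Chromosome 14, the location of NPC2, also stood apart with 19.1% higher and a median of 0.24, and chromosome 16, the location of MVD, with 14.5% lower, 0.462% higher and a median of -0.10. Of the members, SREBF1 (chr17:17810399-17837002) lay on the short-arm side and differed from that side's median by -0.04. ACLY (chr17:41866908-41930542), 0.247 Mb from KRT17, differed from the long-arm median by less than 0.01. ACACA (chr17:37084988-37406818) lay 0.15 above that median and FASN (chr17:82078333-82098332) 0.36 above it. The part of this regional difference in the results for these 4 members was not tested. Among the 30 members tested on other chromosomes, 2 rose (6.67%) and 3 fell (10%), with a median of -0.14. In PANC-1 the medians of the short and long sides were -0.06 and -0.07 with all libraries, and 0.00771 and -0.00416 without empty vector replicate 2.

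**Figure D4:**
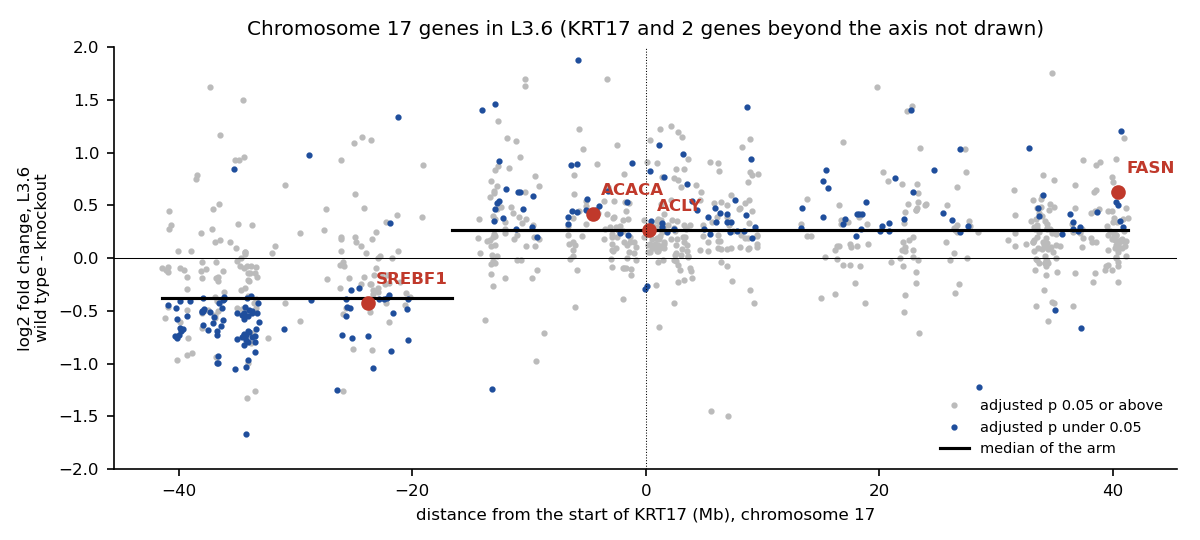
Log2 fold change of each chromosome 17 gene tested in L3.6 against its distance from the start of KRT17 (dotted line), in Mb; blue points passed the test, red points are the 4 members on the chromosome and black bars are the medians of each side. The bars lie at -0.38 on the left and 0.27 on the right, and SREBF1 and ACLY lie close to the bars.

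For some of these genes the difference between the K17-high and K17-low groups was not the same in the 2 lines. In 1 fit of all 12 human libraries the PANC-1 difference minus the L3.6 difference was tested for each gene. It was more positive in PANC-1 for 11 of 35 members and more negative for 0, against 1.25% and 0.284% of all 17583 genes tested. The 11 were HMGCS1, MVK and IDI1 of the mevalonate branch, LSS, SC5D and DHCR7 of the later steps, the regulators INSIG1 and SREBF1, the desaturases FADS1 and FADS2, and LPIN1. The calls of MVK and LPIN1 were lost in 7 of 17 alternative fits each and that of SREBF1 in 5. INSIG1 had the largest value among the 11, 2.79 ± 0.24 (adjusted p = 0.000165), followed by DHCR7 at 1.93 ± 0.17 (adjusted p = 0.000165) and HMGCS1 at 1.89 ± 0.26 (adjusted p = 0.00353). Without PANC-1 empty vector replicate 2 the count was 21 of 35, where 1374 of all 15758 genes were more positive and 445 more negative. Without L3.6 knockout replicate 2 it was 7, where 130 of all 19274 genes were more positive and 22 more negative. In the first of these fits ACAT2, FDPS, MSMO1, HSD17B7 and NPC2 were among the members past the threshold. ACLY, ACACA and ELOVL6, which were positive in both lines, did not pass (differences without replicate 2 of 0.15, 0.19 and 0.37, adjusted p from 0.0662 to 0.387). The lines differ in depth, and the PANC-1 contrast adds a gene that was at 0 to 2 counts while the L3.6 contrast compares wild type with an edited gene. The line, the depth, the kind of K17 change and other differences between the engineered cells of each pair therefore cannot be told apart.

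Genes next to the pathway were read as 6 further lists, against 11.4% of all genes higher and 9.25% lower in PANC-1 without replicate 2, and 3.51% and 6.1% in L3.6. The counts for the first 3 lists are small and near those shares in PANC-1 without replicate 2. Among 9 genes of SREBP processing, 0 passed in PANC-1 with all libraries (lowest adjusted p = 0.264; 3 at an unadjusted p under 0.05, 0 by DESeq2), and without replicate 2 SEC24D, a coat protein of the vesicles that carry SCAP, rose by 0.44 while UBE2G2 and RNF145, of the ubiquitin system, fell by 0.46 and 0.24. RNF145 was also lower in L3.6 wild type (-0.64, adjusted p = 0.000193), and SEC24D higher (1.19, adjusted p = 0.0319). Among 10 genes of the oxysterol receptors and sterol handling, 0 passed in PANC-1 with all libraries (lowest adjusted p = 0.771; 0 at an unadjusted p under 0.05, 0 by DESeq2) and 1, the sterol esterifying enzyme SOAT1, rose by 0.18 without replicate 2. In L3.6, NR1H2, an oxysterol receptor, and GRAMD1A, a sterol transfer protein, fell by 0.32 and 0.71. Of 9 isoprenoid branch genes measured, GGPS1, the geranylgeranyl diphosphate synthase, rose by 0.34 and ICMT fell by 0.15 in PANC-1 without replicate 2, and 0 passed in PANC-1 with all libraries or in L3.6 (1 at an unadjusted p under 0.05 in each, and 0 by DESeq2).

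Of 14 genes of fatty acid elongation and activation tested, 5 rose and 0 fell in PANC-1 without replicate 2, where 11.4% of all genes rose and 9.25% fell, led by the acyl-CoA synthetases ACSL4 (0.59, adjusted p = 4.83e-05) and ACSL3 (0.45, adjusted p = 0.000351) and the elongase ELOVL7 (3.69, adjusted p = 0.00486). With all libraries 0 of 14 passed (lowest adjusted p = 0.0584; 2 at an unadjusted p under 0.05, and 1 by DESeq2). In L3.6, where 3.51% of all genes rose and 6.1% fell, 2 rose and 2 fell, with ACSL4 at -0.67 (adjusted p = 0.000379), ACSL5 at 0.90 (adjusted p = 0.0107) and ACACB at 0.42 (adjusted p = 0.0371). Of 14 glycerolipid genes tested in PANC-1, the acyltransferase AGPAT3 passed with all libraries (1.26, adjusted p = 0.0255). Its levels were 16.9, 15.3 and 18.4 CPM with empty vector and 41.7, 39.3 and 40.3 with K17. Without replicate 2, 4 of the 14 rose and 1 fell, among them AGPAT3 (1.19), PCYT2 (0.83) and LPIN2 (0.47), and in L3.6 0 of 15 passed (3 at an unadjusted p under 0.05, 0 by DESeq2). Of the fatty acid oxidation genes, 0 of 15 passed in PANC-1 with all libraries (1 at an unadjusted p under 0.05, and 1, lower, by DESeq2), and without replicate 2 SLC25A20 and ACADM fell by 1.26 and 0.16 while 0 of 14 rose (1 by DESeq2). In L3.6, ACADVL, on the short-arm side of chromosome 17, fell by 0.55.

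Levels also differed between the lines whatever the K17 status. For 10 members every L3.6 library was above every PANC-1 library and for 5 every one was below, on CPM scales set within each line and with no test. The same count was not made over all genes, so it does not set these members apart from other genes. SREBF1 ranged from 277 to 438 CPM in L3.6 and from 15.2 to 35.1 in PANC-1, and SCAP from 36.5 to 58.0 against 4.99 to 6.20. FADS2 went the other way, at 10.9 to 14.9 CPM in L3.6 and 47.4 to 143 in PANC-1. Rows with few counts, such as FASN, may cover a gene in part, and to a different extent in each line, which limits such comparisons. Beside the 15 counts of CYP51A1 in replicate 2, the rest of the PANC-1 set held 1185 to 2494. Some rows also overlap others on the genome or have near-identical copies, and the strand setting of the counting is not stated. FADS1 and FADS2 share exon bases on opposite strands. On the same strand, FADS2 overlaps FEN1, whose row held 5 to 57 counts per library, and TM7SF2 overlaps VPS51. ACAT2 overlaps TCP1 and SOD2, MVK overlaps MMAB, SREBF1 overlaps RAI1, NPC1 overlaps RMC1 and NPC2 overlaps ISCA2. The values of all these members are uncertain to that extent. Rows of processed copies reached 21.1% of the summed counts for CYP51A1, 14.5% for AACS, 7.5% for HSD17B7 and 1.67% for FDPS in the library where that share was highest.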

How the data were processed

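RNA was sequenced from 18 libraries in 6 groups, with a TruSeq RNA kit after TRIzol extraction per the labels' protocols, and the 12 human libraries were used. Raw counts per gene were read as deposited. Tools named in the submitters' processing notes are kallisto 0.46.2, STAR 2.7.3a and bcl2fastq 1.8.4, with builds GRCm38 and GRCh38. Which tool counted, and with which strand setting, is not given in the sources used here. Of 34505 identifiers, 34474 were named by GENCODE 29.

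Separate fits per line used edgeR 4.0.16 in R 4.3.3 (TMM factors, filterByExpr, robust glmQLFit, glmQLFTest, Benjamini-Hochberg over all genes kept, threshold 0.05), PANC-1 with and without empty vector replicate 2. The difference between lines was an interaction term in 1 fit of 4 groups. The code was tested on simulated data. As alternatives, RLE or upper-quartile scaling was used, as were no filter, a filter of 1 CPM, DESeq2 1.42.0, a replicate block, 1 fit of the 4 groups, omission of the abundant pseudogene row AC010970.1 and omission of each library.

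The members and lists were chosen with earlier results of these data known. Values per library are given for every member past the threshold (the 12 largest changes where a fit called more), and for INSIG1, INSIG2, SREBF1, SREBF2, SCAP and KRT17. Other members are given by their change or mean, and other lists by counts and up to 3 members with the smallest adjusted p. NUS1, ME1 and ECHS1 of those lists, like PMVK and SCD, were not analysed here. Promoter windows came from RefSeq (GRCh38.p14), and the first transcribed bases of 38 of 45 member windows were found in a GENCODE transcript of the gene. Depth per library, the sum of its counts, was lower in L3.6 than in PANC-1.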

Additional observations from a re-analysis of the deposited data

Results flagged for a closer look

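For 11 members the K17-high minus K17-low difference was not the same in PANC-1 and L3.6 by the interaction term (edgeR's quasi-likelihood test, Benjamini-Hochberg adjusted p under 0.05). All 11 were more positive in PANC-1. Of all 17583 genes tested, 1.25% were more positive and 0.284% more negative. The differences on the log2 scale were 1.887 for HMGCS1, 1.44 for MVK and 1.321 for IDI1 in the mevalonate branch. They were 1.546 for LSS, 1.239 for SC5D and 1.933 for DHCR7 in the later sterol steps. The regulators gave 2.79 for INSIG1 and 1.214 for SREBF1. SREBF1 lies on the short-arm side of chromosome 17, where the median difference was 0.22 and 2.9% of genes were more positive in PANC-1. The part of that region in its value was not tested. The desaturases gave 1.147 for FADS1 and 1.717 for FADS2, and LPIN1 gave 0.9158. LPIN1 was higher with K17 in both lines, so for it the difference is one of size. Of 17 alternative fits, HMGCS1, IDI1, LSS, DHCR7, INSIG1 and FADS2 passed in all. FADS1 passed in 16, SC5D in 15, SREBF1 in 12, and MVK and LPIN1 in 10.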

How the results depend on the processing

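No member past the threshold changed sign under any alternative in which it was tested. With each L3.6 library left out in turn, members called higher ranged from 1 to 6 and lower from 3 to 5, against 4 and 4. In L3.6, no filter gave 1 higher and 7 lower, against 414 and 1006 of all genes. The replicate block gave 1 higher, against 224 of all genes, and 1 fit of the 4 groups 0 and 0, against 63 and 141. In PANC-1, members called higher (6) became 15 with DESeq2 and 15 in 1 fit of the 4 groups, against 448 and 286 of all genes. The replicate block gave 0 members and 0 of all genes. With 1 library left out the count ranged from 0 to 30, and the fits with 0 members called 0 or 1 of all genes. The 30 came without empty vector replicate 2. In that fit 1902 of all genes were higher and 1540 lower. Omitting each K17 library as well gave 27 to 29 members, against 1490 to 1593 of all genes higher. Without replicate 2, the block gave 27 members, against 1266 of all genes higher and 986 lower. The interaction count of 11, where 220 of all genes were more positive, became 6 with the block, where 62 were. It ranged from 7 (without L3.6 knockout replicate 2, 130 of all genes) to 21 (without PANC-1 empty vector replicate 2, 1374 of all genes). Whether replicate numbers pair the libraries was not settled. The correlations of same-numbered deviations from the group means were -0.157, -0.0509 and 0.0103 in L3.6 and 0.108, 0.17 and 0.051 in PANC-1. With so few libraries per group, and with empty vector replicate 2 in the PANC-1 means, these values cannot exclude pairing. The causes were not tested.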
